A study of Mus musculus with 24 samples.

Results

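Basal cells and luminal progenitors of the wild-type mouse mammary gland were compared across all genes in 8 of the 24 libraries of the series, 4 of each population. The libraries were chosen by their labels (wild-type, basal or luminal progenitor), not by any measured value. All came from female FVB/N mice aged 10 to 12 weeks and taken at estrus, and glands of 4 to 8 mice were pooled for each replicate. Lineage-negative live cells were sorted by flow cytometry into basal cells (CD24+, CD29 high, CD61+), luminal progenitors (LP; CD24+, CD29 low, CD61+) and mature luminal cells (ML; CD24+, CD29 low, CD61-), so that libraries with the same replicate number share a pool of mice. The wild-type mice carry no transgene or deletion named in the labels, and the other arm of the series holds the same 3 populations from Id4 knockout (KO) mice. A library is a mean over sorted cells of pooled animals, and in such bulk RNA fewer cells of a type and less RNA per cell cannot be told apart.

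The mammary duct has an outer layer of basal cells, most of them contractile myoepithelial cells that touch the basement membrane and squeeze milk out in response to oxytocin. The inner luminal layer faces the lumen and holds hormone-sensing cells and progenitors that give rise to the milk-secreting alveolar cells. Basal cells are known by smooth muscle proteins and the keratins K5 and K14 under the transcription factor p63, and luminal cells by K8 and K18. The transcription factor ELF5 is known as a driver of the alveolar fate and as a mark of luminal progenitors.

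Library totals ran from 3180867 to 6524299 counts in basal cells and from 4227084 to 7246443 in LP, so that 3 counts in a library stand for 0.374 to 0.914 CPM, the read counts scaled by library size. The first principal component, with 42.7% of the variance of the 8 libraries, set the populations apart, with basal libraries from -92.1 to -73.1 and LP libraries from 77.1 to 86.7. The second, with 25.2%, set basal replicate 2 at -152 apart from the 7 other libraries, which lay between -13.4 and 61.5. Basal replicate 2 also had the lowest median Spearman correlation with its own group, 0.766 against 0.858 to 0.890 for the other basal libraries and 0.908 to 0.919 for LP. Where leaving this library out moved the count of a list by over 1.5 times or changed the call of a gene, the value without it is given beside the result. The spread between replicates was larger in basal cells, with a common biological coefficient of variation of 0.771 against 0.420 in LP.

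The label markers were checked first. Acta2, the smooth muscle actin of myoepithelial cells (ENSMUSG00000035783; mm10 chromosome 19, 34241090 to 34255590, minus strand), measured 4271, 3463, 2457 and 4513 CPM in basal replicates 1 to 4 and 28.2, 31.3, 18.46 and 30.7 CPM in LP. The groups lay far apart in every library, with a log2 fold change of 7.08 (SE 0.40; adjusted p = 3.69e-08, edgeR's quasi-likelihood test). Krt14, which encodes keratin K14 (ENSMUSG00000045545; chromosome 11, 100203162 to 100207548, minus strand), measured 813, 352, 578 and 699 CPM in basal cells and 3.99, 5.24, 4.56 and 0.787 CPM in LP, again without overlap (log2 7.395, SE 0.79; adjusted p = 1.02e-05). Elf5 (ENSMUSG00000027186; chromosome 2, 103411688 to 103450989, plus strand) went against its label in 1 library: it measured 2.46, 296, 13.1 and 11.8 CPM in basal replicates 1 to 4 and 207, 341, 175 and 139 CPM in LP. Basal replicate 2 thus lay inside the LP range for Elf5 and the other 3 basal libraries far below it. The gene did not pass with all libraries (log2 -1.41, SE 1.09; adjusted p = 0.453) and passed without basal replicate 2 (log2 -4.61; adjusted p = 1.19e-04) and in a fit that blocks the pool of mice (adjusted p = 0.0394). In the same library Acta2 lay within the range of the other basal libraries. Its Krt14 was the lowest of the 4 but far above every LP library. Its summed CPM of the basal keratins listed below was also the lowest (965, against 1359 to 2186 in the other basal libraries). The same held for the contractile list (11570.7 CPM) and the basement membrane list (3800 CPM). Of the surface proteins used for the sort, only CD29 set the basal gate apart from the LP gate. The difference in its gene Itgb1 is therefore no finding (basal 457 ± 147 CPM, LP 241 ± 28.0; SD, n = 4). Both gates took CD24+ and CD61+ cells, so the sort does not fix a difference in the other genes. Itgb3 (CD61) averaged 81.6 ± 57.8 CPM for basal libraries against 183 ± 31.7 for LP. Itgb3 did not pass with all libraries. It passed without basal replicate 2 (log2 -1.79; adjusted p = 6.85e-04) and with the pool blocked. Cd24a averaged 699.6 ± 189 CPM for basal libraries against 1024 ± 207 for LP.

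**Figure D1:**
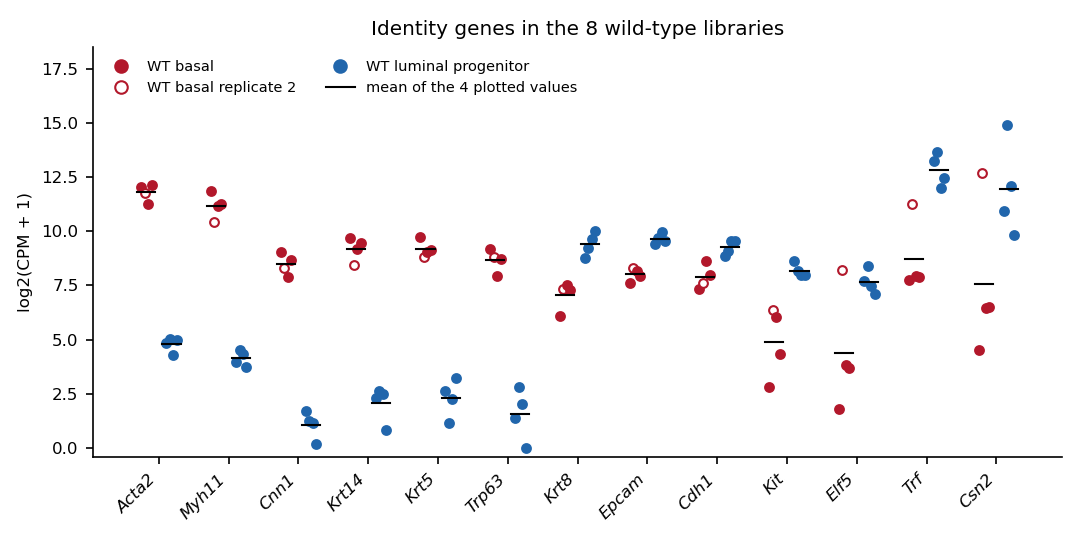
Levels of 13 identity genes as log2(CPM + 1), with 1 point for each of the 4 basal and 4 LP libraries, the mean of the plotted values as a bar, and basal replicate 2 as an open symbol. Acta2 to Trp63 are separated by wide gaps, while for Elf5 and Csn2 basal replicate 2 lies within the range of the LP libraries.

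Of 12771 genes tested, 2018 (15.8%) passed at an adjusted p of at most 0.05, 1165 of them higher in basal cells (9.12%) and 853 lower (6.68%). The changes upward were larger in the fit of all libraries. The median log2 fold change was 2.81 among the higher genes and -1.89 among the lower ones. There 225 higher but only 52 lower genes passed with a change of at least 5 on the log2 scale. These medians and counts are not given without basal replicate 2, where some lower genes, such as Cyp24a1 below, had larger changes. The share of higher among all calls was 57.7%, and 53.0% without that library. All 4 libraries of one group lay above all 4 of the other for 2490 genes tested (19.5%), in 1243 with basal cells above and in 1247 with LP above, and 1777 of the genes that passed were among them. Without basal replicate 2 the counts were 1487 higher (11.1% of 13381 tested) and 1321 lower (9.87%), and 1083 of the 1165 and 799 of the 853 still passed in the same direction. Among genes tested in both fits, 312 higher and 488 lower ones passed only without that library. The median over all genes tested was -0.03. The list counts below stand against the background of 9.12% higher and 6.68% lower. For counts without basal replicate 2, the background among the same 12771 genes was 1395 higher and 1287 lower. With the pool of mice as a block it was 1219 and 1020.

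The largest changes among genes that passed, had separated groups, reached 20 CPM and were seen in both populations were upward. Sostdc1, a secreted antagonist of BMP and Wnt signals, measured 37.4, 199, 6.40 and 45.3 CPM in basal libraries and at most 0.175 CPM in LP (log2 9.45, SE 1.13). Kcnmb1, the smooth muscle subunit of the large-conductance calcium-activated potassium channel, measured 29.0, 87.3, 49.0 and 41.7 CPM against at most 0.350. The others were Eya1 (log2 8.89), Tmem200a (8.78), the serotonin receptor gene Htr1d (8.53), Nptx1 (8.40), the growth factor gene Hgf (8.38), Cyp2s1 (8.34), the extracellular glycoprotein gene Reln (8.19), the small proteoglycan gene Fmod (8.17), the contractile regulator gene Cnn1 (8.15) and Cdh3, which encodes P-cadherin (8.07). Fitted values of this size rest on LP levels of a few counts. Another 4 genes at 20 CPM or more in basal cells had no count in any LP library. Capn6 averaged 46.0 ± 26.2 CPM in basal cells, Psd2 27.9 ± 9.19, Kcnma1 22.5 ± 7.47 and Cyp2j9 21.6 ± 22.4. Against 3 counts over the LP group, Capn6 was at least 372-fold higher, Psd2 at least 225-fold, Kcnma1 at least 182-fold and Cyp2j9 at least 174-fold. Kcnma1 encodes the pore of the same potassium channel that Kcnmb1 belongs to.

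In the other direction the largest change by the same rule was in Car2, the cytosolic carbonic anhydrase, with 1.88, 0.200, 1.83 and 0.164 CPM in basal cells and 105, 106, 72.2 and 48.2 CPM in LP (log2 -6.36, SE 0.91; adjusted p = 1.55e-04). Pigr, the receptor that carries IgA into milk, measured 0.869, 3.603, 0 and 0.981 CPM in basal cells and 28.2, 179, 97.1 and 37.3 CPM in LP (log2 -5.91, SE 0.95; adjusted p = 4.20e-04). Next came Mfi2 (log2 -5.06), which encodes melanotransferrin, the water channel gene Aqp5 (-4.91), Cyp24a1 (-4.50), the enzyme that inactivates vitamin D, Ldb3 (-4.43), the transcription factor gene Foxi1 (-4.31), the noncoding RNA gene Pinc (-4.27), Spns3 (-3.96), Enpp3 (-3.80), Pde9a (-3.77) and the folate receptor gene Folr1 (-3.73). Folr1 lost its call without basal replicate 4 (adjusted p = 0.0629) and without LP replicate 2 (0.107), the other 11 kept theirs without any 1 library. Foxi1 measured 0, 7.41, 3.35 and 0.654 CPM in basal cells and 55.4, 97.0, 23.98 and 44.2 CPM in LP, without overlap. In Cyp24a1, Pinc and Folr1 basal replicate 2 held most of the basal signal, and the log2 fold change without it was -7.43 for Cyp24a1, -6.44 for Pinc and -6.86 for Folr1.

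Levels can be compared between genes only per length, here as CPM per kilobase of the deposited gene length. The most abundant genes among those higher in basal cells were Acta2 (2064 ± 521 CPM per kb; SD, n = 4), the immediate early gene Egr1 (1534 ± 809), Zfp36 (1135 ± 591), which encodes an mRNA decay factor, mt-Nd2 (965 ± 198) and the tropomyosin gene Tpm2 (840.4 ± 443). Among the genes lower in basal cells, the most abundant in LP were Trf, the iron carrier transferrin (5763 ± 2850.1 CPM per kb), Plet1 (2633 ± 1286), a surface protein of epithelial progenitors, Lcn2 (2522 ± 621), an antibacterial siderophore binder, the translation factor gene Eef1a1 (2007 ± 171) and Fcgbp (1673 ± 387), which encodes a mucus protein. The casein genes Csn2 (9665 ± 14524 CPM per kb) and Csn1s1 (7002 ± 8334) stood above Trf in LP, but their spread was larger than their mean. Egr1, Zfp36 and mt-Nd2 were near the threshold: without basal replicate 2 their adjusted p was 0.0514, 0.0831 and 0.0753, and without basal replicate 1 it was 0.0621, 0.122 and 0.0509. Without LP replicate 3 it was 0.056, 0.112 and 0.0702. Leaving out LP replicate 1 also ended the calls of Zfp36 (0.0556) and mt-Nd2 (0.131), as did LP replicate 2 for Zfp36 (0.0801), and LP replicate 4 (0.133), basal replicate 3 (0.0866) and basal replicate 4 (0.0515) for mt-Nd2. Plet1 lost its call without basal replicate 4 (0.0519), and Lcn2 without basal replicate 1 (0.0504), basal replicate 4 (0.0539) or LP replicate 2 (0.0619).

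The contractile apparatus was the group that differed most uniformly. Of 22 listed genes 20 were tested, 19 were higher in basal cells and none was lower, against a background of 9.12% higher, and the list median was 4.61 on the log2 scale. The summed level of the list was 20907.5, 11570.7, 12388.4 and 15939.7 CPM in basal replicates 1 to 4 and between 725 and 892 CPM in the LP libraries. Myh11, the smooth muscle myosin heavy chain, averaged 2465 ± 982 CPM in basal cells and 17.0 ± 4.31 in LP (log2 7.18). Mylk, the kinase that activates smooth muscle myosin, averaged 1054 ± 311 and 10.2 ± 1.79 CPM (log2 6.69, adjusted p = 3.69e-08). Cnn1, the calponin that tunes this myosin, measured 526, 318, 234 and 406 CPM in basal cells and 2.25, 1.40, 1.20 and 0.157 CPM in LP. Myl9, the regulatory light chain (chromosome 2, 156775420 to 156781658, plus strand), measured 274, 231, 152 and 224 CPM in basal cells and 1.498, 2.27, 1.44 and 1.57 CPM in LP (log2 7.004, SE 0.57; adjusted p = 7.78e-07). Every basal library, replicate 2 included, was thus at the high level of these genes.

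The cytoskeletal members that other cells also use differed less. Flna, the actin crosslinker filamin A, averaged 1639.7 ± 437 CPM in basal cells and 174 ± 31.7 in LP (log2 3.24), and Tpm1 1149.7 ± 374 and 129.6 ± 29.6 (log2 3.15). Vcl (log2 1.604) and Mkl1 (log2 1.33), which encodes an actin-sensing cofactor of serum response factor, had the smallest changes that passed. Mkl1 lost its call without basal replicate 1 (adjusted p = 0.0572), LP replicate 1 (0.0648) or LP replicate 3 (0.0621). Srf, serum response factor itself, was the 1 tested member that did not pass (98.6 ± 39.7 against 44.7 ± 17.8 CPM; log2 1.14, adjusted p = 0.0511), and it passed without LP replicate 4 (0.0324), basal replicate 3 (0.0471) or basal replicate 4 (0.0365). Oxtr, the oxytocin receptor, measured 1444, 621, 735 and 559 CPM in basal cells and 80.8, 75.7, 37.4 and 53.4 CPM in LP (log2 3.76, SE 0.41; adjusted p = 1.37e-05).

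Serum response factor binds the CArG box, an element with CC and GG around 6 bases of A or T, in many smooth muscle promoters. RefSeq promoter sequences (GRCm38.p6, the same sequence as mm10) of 2 contractile genes are shown because both genes moved with the whole list and both windows hold such elements. The windows are the 250 bases before the RefSeq start site, written 5′ to 3′ in the direction of transcription. The gene spans given above come from the GENCODE annotation, where the starts of both genes differ, so that both windows overlap those spans. Capitals mark CArG boxes and CArG-like boxes in which 1 of the 6 central bases is C or G. The looser form was added after the Acta2 sequence had been read.
Acta2, chr19:34255374-34255623, minus strand: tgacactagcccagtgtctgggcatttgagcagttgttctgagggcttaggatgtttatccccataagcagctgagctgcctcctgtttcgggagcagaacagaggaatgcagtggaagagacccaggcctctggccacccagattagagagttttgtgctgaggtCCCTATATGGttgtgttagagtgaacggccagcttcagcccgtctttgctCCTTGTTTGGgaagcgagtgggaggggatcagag
Myl9, chr2:156775214-156775463, plus strand: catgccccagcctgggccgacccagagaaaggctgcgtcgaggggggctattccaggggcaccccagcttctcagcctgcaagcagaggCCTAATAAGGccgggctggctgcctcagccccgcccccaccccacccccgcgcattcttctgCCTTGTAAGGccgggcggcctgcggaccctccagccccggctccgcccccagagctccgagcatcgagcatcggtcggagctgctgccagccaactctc
In Acta2 both elements are of the looser form and begin at -84 and -34 from the start site. In Myl9 the box at -161 is a CArG box and the one at -99 is of the looser form. Over windows of 250 bases before to 50 after the start, read on both strands, 488 of 27025 genes (1.81%) held a CArG box and 2620 (9.69%) the looser form. Among the contractile genes with a promoter in the table, 3 of 17 held a CArG box (Myl9, Srf and Vcl) and 2 of 17 the looser form (Acta2 and Myl9). The E-box CANNTG was in 12 of these 17 promoters and in 75.0% of all promoters. A match of letters is a description of the window and not a binding site.

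The keratins that passed followed the layer they are known from, with 1 exception. Of 6 basal keratins 4 were higher in basal cells: Krt5 averaged 599 ± 173 CPM in basal cells and 4.67 ± 3.02 in LP (log2 6.98), Krt17 228 ± 166 and 1.25 ± 0.980 (log2 7.51), and Krt15 77.4 ± 20.4 and 5.29 ± 3.51 (log2 3.87), beside Krt14. Krt16 (9.83 ± 12.4 against 0.431 ± 0.569 CPM; adjusted p = 0.0593) did not pass unless basal replicate 2 was left out (0.0108) or the pool was blocked (0.0454), and Krt6a did not pass. Of 5 luminal keratins 3 were lower in basal cells, namely Krt8 (142 ± 51.5 against 719 ± 251 CPM; log2 -2.34), Krt18 (139 ± 103 against 642 ± 194; log2 -2.21) and Krt19 (148 ± 93.1 against 573 ± 148; log2 -1.96), while Krt7 did not pass. The luminal keratins were thus lower but still well above 0 in basal libraries, where they summed to 230 to 750 CPM. The basal keratins in LP summed to 12.5 to 31.2 CPM. Krt23, listed with the luminal keratins, was higher in basal cells (23.5 ± 22.8 against 0.977 ± 1.52 CPM; log2 4.46, adjusted p = 0.00653), with overlapping groups.

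Among transcription factors, 9 of 11 tested members of the list of basal factors and factors of the epithelial-mesenchymal transition were higher in basal cells and none was lower, with a median of 3.98. Trp63, the gene of p63, measured 576, 451, 241 and 420.1 CPM in basal cells and 1.62, 6.12, 3.12 and 0 CPM in LP (log2 7.31, SE 0.87; adjusted p = 2.86e-05). Egr2 averaged 457 ± 160.4 and 29.0 ± 6.26 CPM (log2 3.98), Irx4 31.6 ± 12.4 and 0.216 ± 0.295 (log2 6.95), and Snai2, the zinc finger repressor Slug, 41.3 ± 24.7 and 0.698 ± 1.01 (log2 5.83). Zeb1 (4.66 ± 3.72 against 6.16 ± 2.97 CPM) and Zeb2 (7.76 ± 3.94 against 4.19 ± 3.88), which are known for the same transition, did not pass. Among the classic factors of that kind, Slug was thus the 1 that passed. Snai1, Twist1 and Twist2 were too low to be tested.

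The luminal transcription factors differed in fewer members. Of 22 tested, 5 were lower in basal cells and 1 was higher, against 6.68% and 9.12% of all genes. The other 16 did not pass, and the list median was -0.53. Ehf, an ETS factor of epithelia, averaged 45.3 ± 23.3 CPM in basal cells and 369 ± 77.5 in LP (log2 -3.03, SE 0.38; adjusted p = 4.50e-05), Grhl1, a grainyhead factor, 15.4 ± 8.34 and 63.2 ± 18.2 (log2 -2.03), and Creb3l1 4.70 ± 4.07 and 40.4 ± 16.1 (log2 -3.09). The other 2 were the Notch targets Hey1 and Hes1, given with their pathway. Several factors known for luminal identity did not pass: Gata3 averaged 63.7 ± 14.3 in basal cells and 76.2 ± 15.0 CPM in LP, Sox9 229 ± 56.4 and 313 ± 79.2, Sox10 44.7 ± 23.1 and 79.2 ± 14.4, and Stat5a 95.0 ± 20.6 and 85.8 ± 8.75. Tfap2c was higher in basal cells (74.0 ± 23.9 against 31.0 ± 7.93 CPM; log2 1.26), a call that was lost without basal replicate 1 (adjusted p = 0.0621), LP replicate 1 (0.0586) or LP replicate 3 (0.0548).

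Of the genes for E proteins and the ID proteins that block them, the 3 that passed were all higher in basal cells. Id4 measured 86.1, 13.4, 30.2 and 39.1 CPM in basal cells and 0, 0.175, 0.480 and 0.787 CPM in LP (log2 6.86, SE 0.88; adjusted p = 5.73e-05). Id3 averaged 14.1 ± 2.83 and 3.69 ± 1.80 CPM (log2 1.92), and the E protein gene Tcf4 96.0 ± 19.4 and 31.5 ± 2.91 (log2 1.61). The other 4 did not pass, for example Tcf12 with 115 ± 38.0 and 139 ± 9.12 CPM.

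Genes of the basement membrane, the sheet on which basal cells sit, were mostly higher in basal cells: 17 of 23 tested were higher, 1 was lower and 5 did not pass, with a median of 2.72. Col4a2, a chain of the network-forming collagen IV, measured 719, 429, 471 and 888 CPM in basal cells and 12.1, 9.26, 5.75 and 6.61 CPM in LP (log2 6.199, SE 0.36; adjusted p = 3.69e-08). Its partner chain Col4a1 averaged 472 ± 211 and 8.33 ± 2.74 CPM (log2 5.83). Col17a1, the collagen of hemidesmosomes, averaged 279.7 ± 80.6 and 2.78 ± 1.10 (log2 6.67), and the laminin chain gene Lama1 424 ± 150.4 and 18.2 ± 7.04 (log2 4.54). Laminin chains differed in size of change, as with Lama3 (log2 4.13) and Lama5 (log2 1.46). Npnt, which encodes nephronectin, a ligand of integrin alpha 8, was the 1 member lower in basal cells (7.75 ± 5.83 against 42.3 ± 12.1 CPM; log2 -2.47, adjusted p = 0.00692).

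The interstitial matrix list split by gene. Of 19 tested, 8 were higher in basal cells, none was lower and 11 did not pass. Sparc, a matricellular calcium binder, measured 1619, 1439, 1225 and 1407 CPM in basal cells and 27.6, 32.7, 18.46 and 39.0 CPM in LP (log2 5.59, SE 0.29; adjusted p = 2.34e-08). Postn, periostin, averaged 1492 ± 624 and 16.7 ± 1.85 CPM (log2 6.48), the proteoglycan gene Bgn 251 ± 34.8 and 4.52 ± 1.24 (log2 5.80), Col16a1 131 ± 22.1 and 20.8 ± 4.97 (log2 2.66) and thrombospondin Thbs1 1488 ± 678 and 175 ± 55.6 (log2 3.09). Col3a1, a main collagen of fibroblasts, did not pass and was low in both populations (13.3 ± 9.39 and 33.2 ± 22.8 CPM). Fibronectin, Fn1, also did not pass (34.4 ± 33.0 against 99.2 ± 105 CPM).

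Proteases and inhibitors that remodel matrix were higher in basal cells in 13 of 20 tested members and lower in 1, with a median of 3.03. Adamts9 averaged 157 ± 63.4 CPM in basal cells and 6.86 ± 2.49 in LP (log2 4.52), Adamts1 1342 ± 1156 and 29.7 ± 12.1 (log2 5.49), and the procollagen peptidase gene Adamts2 49.5 ± 15.4 and 1.52 ± 1.45 (log2 5.08). The inhibitor gene Timp3 averaged 453 ± 129.6 and 36.4 ± 29.7 (log2 3.64), and Mmp2, a gelatinase, 170.5 ± 28.7 and 7.16 ± 8.57 (log2 4.56). The member lower in basal cells was the membrane-bound Mmp15 (10.1 ± 7.003 against 43.6 ± 23.8 CPM; log2 -2.12), while Mmp14, another membrane-bound member, was higher (73.5 ± 35.4 against 25.8 ± 6.197; log2 1.51).

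Receptors for matrix followed the same direction, with 14 of 25 tested integrin and focal adhesion genes higher in basal cells, 1 lower and 10 not passed, and without basal replicate 2 the lower ones were 3 and with the block 2. Itga5, the fibronectin receptor chain, averaged 50.02 ± 20.5 CPM in basal cells and 2.86 ± 1.45 in LP (log2 4.15), Itga3, a laminin receptor chain, 141 ± 61.9 and 23.1 ± 3.98 (log2 2.61), Itga6, which pairs with beta 1 and beta 4, 960.2 ± 246 and 241 ± 55.2 (log2 1.99), and Itga9 88.9 ± 25.2 and 1.24 ± 1.56 (log2 6.15). Itgb6, the epithelial beta chain that activates latent TGF-beta, was lower (9.89 ± 5.28 against 34.9 ± 14.6 CPM; log2 -1.81). Itgb4, the hemidesmosomal chain, did not pass (84.0 ± 19.2 against 55.0 ± 15.9 CPM; log2 0.61, adjusted p = 0.159). This list holds Itgb1, whose protein was part of the gate.

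Cell-cell junction genes went both ways. Of 28 tested, 6 were higher in basal cells and 13 lower, with a median of -1.49. The 6 higher genes were Cdh3, the desmosomal genes Dsp (662 ± 308 against 117 ± 47.8 CPM; log2 2.50), Pkp1 (91.1 ± 52.9 against 7.66 ± 5.28; log2 3.57), Dsc3 (7.50 ± 5.35 against 0.0911 ± 0.115; log2 6.15) and Perp (255 ± 88.8 against 26.4 ± 7.46; log2 3.27), and the gap junction gene Gja1, connexin 43 (248 ± 82.8 against 8.36 ± 2.26; log2 4.88). The lower genes included the tight junction genes Ocln (7.60 ± 3.38 against 58.3 ± 10.99 CPM; log2 -2.92), Cldn7 (5.24 ± 4.56 against 58.0 ± 14.5; log2 -3.49) and Marveld2 (9.07 ± 9.92 against 72.4 ± 18.1; log2 -3.05). The same families held members on either side. Pkp1 was higher and Pkp2 lower (6.74 ± 5.01 against 66.9 ± 20.7 CPM; log2 -3.34), and connexin 43 was higher while Gjb2, connexin 26, was lower (6.16 ± 6.11 against 60.3 ± 16.1; log2 -3.25). The classical cadherins were split as well. Cdh3 measured 342, 92.3, 166 and 111 CPM in basal cells and 0.624, 0.699, 1.44 and 0 CPM in LP, whereas Cdh1, E-cadherin, measured 162, 196, 397 and 254 CPM in basal cells and 461, 537, 761 and 753 CPM in LP (log2 -1.32, SE 0.27; adjusted p = 0.00283). P-cadherin was thus nearly absent from LP libraries, and E-cadherin was present in both populations and lower in basal cells.

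**Figure D2:**
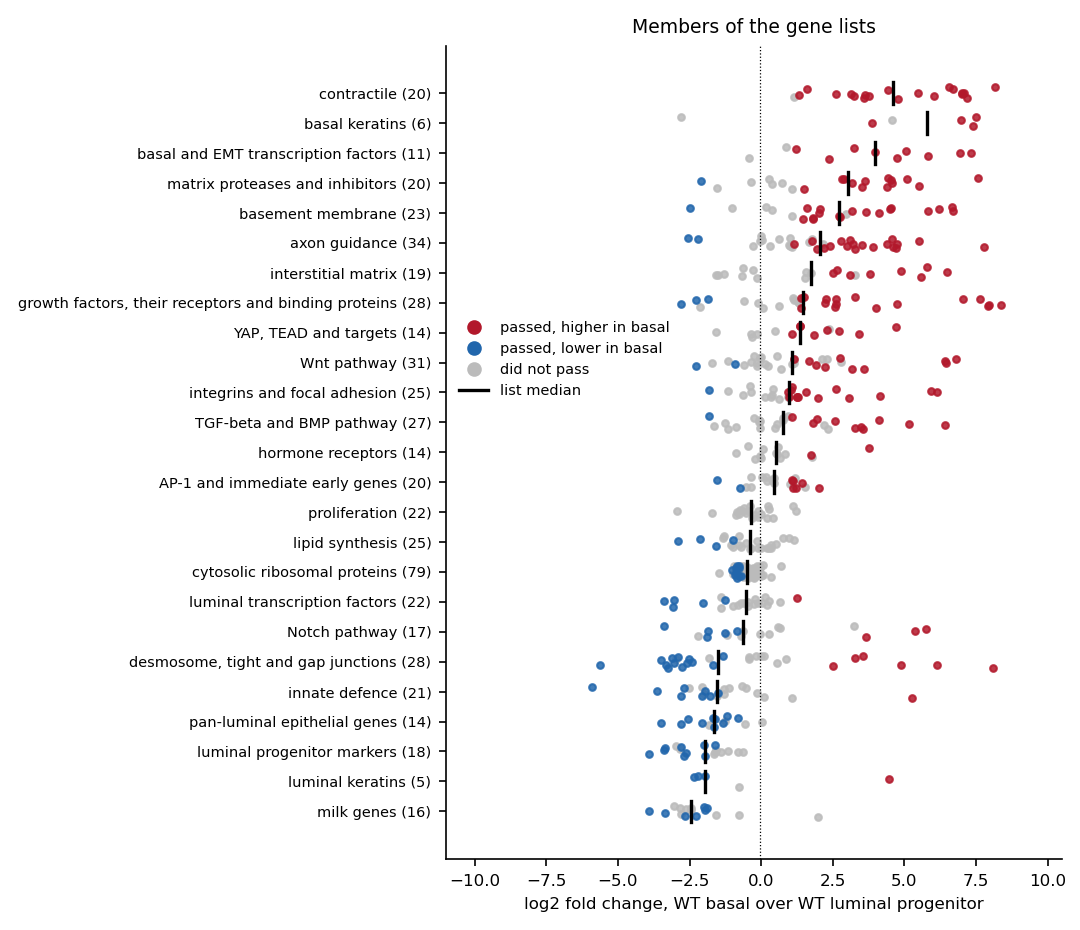
Log2 fold change of basal over LP cells for every tested member of 25 gene lists (number tested in brackets), with 1 point per gene coloured by its call, the list median as a bar, and the median of all tested genes as a dotted line. The contractile list lies wholly to the right with a median of 4.61, and the milk list has its median at -2.45 with 7 of 16 members passed.

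Ligands and receptors of several pathways lay on opposite sides. In the Notch pathway, where a ligand on one cell activates a receptor on its neighbour, 3 of 17 tested genes were higher in basal cells and all 3 were ligands, and 5 were lower, 3 receptors and 2 targets. Dll1 (chromosome 17, 15367354 to 15376872, minus strand) measured 111, 75.7, 116 and 115 CPM in basal cells and 4.37, 1.05, 1.92 and 2.36 CPM in LP (log2 5.39, SE 0.55; adjusted p = 6.42e-06). Jag1 averaged 77.5 ± 31.8 and 6.10 ± 1.12 CPM (log2 3.66) and Jag2 48.6 ± 28.2 and 0.892 ± 1.27 (log2 5.74). The receptor gene Notch1 measured 25.9, 110.1, 54.8 and 66.1 CPM in basal cells and 296, 303, 114 and 235 CPM in LP (log2 -1.88, SE 0.39; adjusted p = 0.00347), so that basal replicate 2 nearly reached the lowest LP library. Notch2 averaged 80.4 ± 17.7 and 146 ± 17.3 CPM (log2 -0.86) and Notch3 25.5 ± 23.6 and 91.7 ± 18.2 (log2 -1.85). Among the targets, Hey1 measured 67.2, 117, 24.4 and 21.9 CPM in basal cells and 1047, 828, 132 and 386 CPM in LP (log2 -3.38, SE 0.68; adjusted p = 0.00283), and Hes1 averaged 15.1 ± 3.5002 and 36.6 ± 3.84 CPM (log2 -1.27). Notch2 lost its call without LP replicate 1 (adjusted p = 0.0522) or LP replicate 2 (0.0508). Notch3, which is also expressed by pericytes, lost its call without basal replicate 3 (adjusted p = 0.0641), basal replicate 4 (0.0719), LP replicate 2 (0.0726) or LP replicate 4 (0.0514).

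The receptor tyrosine kinases Kit and Met had the same arrangement. Kit, the stem cell factor receptor (chromosome 5, 75574916 to 75656722, plus strand), measured 6.08, 81.5, 64.6 and 19.0 CPM in basal cells and 396, 286, 250.3 and 251 CPM in LP (log2 -2.80, SE 0.58; adjusted p = 0.00336). Its ligand gene Kitl measured 283, 265, 235 and 285 CPM in basal cells and 84.9, 67.5, 141 and 113 CPM in LP (log2 1.40, SE 0.26; adjusted p = 0.00147). Met, the receptor of hepatocyte growth factor, measured 48.8, 82.9, 68.5 and 48.4 CPM in basal cells and 239, 246, 193 and 220.2 CPM in LP (log2 -1.85, SE 0.30; adjusted p = 4.83e-04). Its ligand gene Hgf measured 40.2, 61.9, 17.7 and 16.8 CPM in basal cells and 0.125, 0.175, 0 and 0 CPM in LP. In both pairs the ligand was higher in every basal library and the receptor in every LP library.

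The ErbB family, the receptors for EGF and the neuregulins, was divided, with 3 of 12 tested genes higher in basal cells and 4 lower. Nrg1, a neuregulin that binds ErbB3 and ErbB4, measured 38.2, 77.9, 31.7 and 129 CPM in basal cells and 1.75, 0.350, 0.719 and 5.35 CPM in LP (log2 5.04, SE 0.79; adjusted p = 3.52e-04). Erbb3 averaged 29.5 ± 15.6 and 127 ± 27.4 CPM (log2 -2.11, adjusted p = 2.26e-04), and Erbb4 6.13 ± 5.31 and 35.9 ± 9.02 (log2 -2.55), both lower in basal cells. Erbb4 lost its call without any of LP replicates 2, 3 and 4 or basal replicates 3 and 4 (adjusted p = 0.0627, 0.0669, 0.0718, 0.0815 and 0.0547). Egfr was higher instead (250.01 ± 28.3 against 98.6 ± 13.7 CPM; log2 1.34), with groups that did not overlap, and lost its call without LP replicate 4 (adjusted p = 0.0506). Erbb2 was lower (23.1 ± 3.94 against 45.6 ± 10.9 CPM; log2 -0.98), a call lost without LP replicates 1, 2 or 4 or basal replicates 1 or 4 (adjusted p = 0.0552, 0.125, 0.0628, 0.074 and 0.0793). The other ligands that passed went both ways: Tgfa was higher in basal cells (log2 2.84) and Btc, betacellulin, lower (log2 -2.03), each with overlapping groups. Btc lost its call without LP replicates 1 or 2 or basal replicates 1 or 4 (adjusted p = 0.0978, 0.104, 0.0671 and 0.0746).

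**Figure D3:**
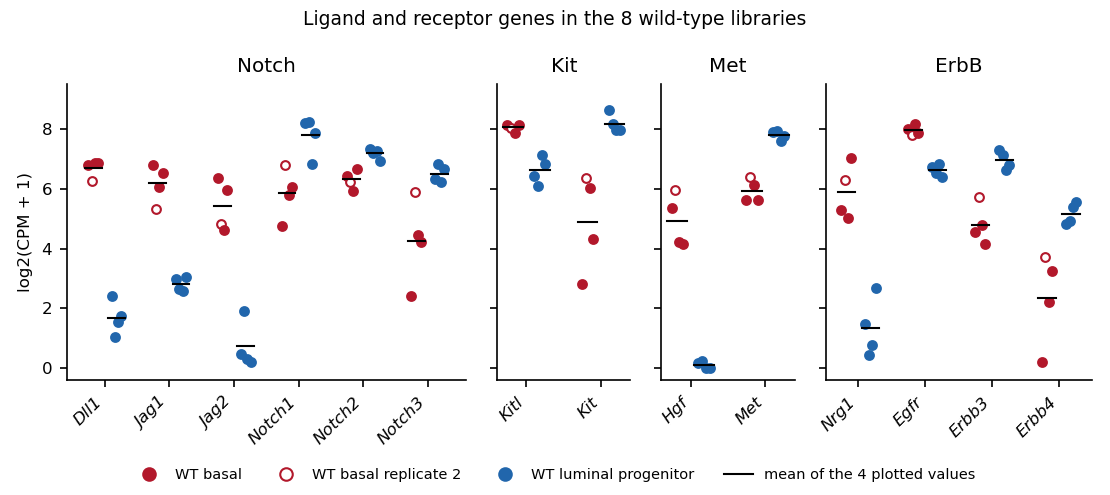
Levels of ligand and receptor genes of the Notch, Kit, Met and ErbB pathways as log2(CPM + 1), with 1 point for each of the 4 basal and 4 LP libraries and the mean of the plotted values as a bar. Dll1, Jag1, Jag2, Kitl, Hgf, Nrg1 and Egfr are higher in every basal library, and Notch1 to Notch3, Kit, Met, Erbb3 and Erbb4 in every LP library.

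Other growth factors and binding proteins were mostly on the basal side, with 16 of 28 tested higher and 3 lower (Met, Kit and Lif). Igfbp3, a binding protein of insulin-like growth factors, measured 273, 169, 229 and 293 CPM in basal cells and 0.874, 1.22, 1.68 and 3.46 CPM in LP (log2 7.05, SE 0.57; adjusted p = 7.78e-07). The chemokine gene Cxcl14 averaged 195 ± 68.0 and 0.907 ± 1.02 CPM (log2 7.90), Igfbp2 29.1 ± 16.9 and 0.122 ± 0.152 (log2 7.65), Cxcl12 70.6 ± 43.3 and 2.59 ± 2.14 (log2 4.72) and Csf1, the macrophage growth factor, 158 ± 50.9 and 26.5 ± 6.31 (log2 2.58). The cytokine gene Lif was lower (25.8 ± 11.4 against 125 ± 84.8 CPM; log2 -2.29). The most abundant binding protein, Igfbp5, did not pass (4065 ± 611 against 6129 ± 1482 CPM; log2 -0.59, adjusted p = 0.159).

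In the Wnt pathway 10 of 31 tested genes were higher in basal cells, 2 were lower and 19 did not pass. The receptors of R-spondins were all higher: Lgr5 measured 140.4, 70.5, 125 and 91.6 CPM in basal cells and 2.50, 1.22, 0.240 and 0.630 CPM in LP (log2 6.43, SE 0.83; adjusted p = 6.01e-05), Lgr4 averaged 127 ± 47.5 and 18.7 ± 2.27 CPM (log2 2.76) and Lgr6 264 ± 53.5 and 118 ± 31.3 (log2 1.16). The Lgr6 call was the weakest, with an adjusted p of 0.0555 when the pool was blocked and of 0.0509 to 0.112 when any 1 of 6 libraries was left out (LP replicates 2, 3 and 4, basal replicates 1, 2 and 4). The Wnt receptor gene Fzd7 averaged 326 ± 213 and 36.1 ± 12.9 (log2 3.17), and Dkk3 129.7 ± 67.6 and 1.53 ± 1.92 (log2 6.45). The 2 members lower in basal cells were Tcf7l2, a nuclear effector (216 ± 56.3 against 403 ± 82.5 CPM; log2 -0.90), and the secreted antagonist Sfrp2 (7.48 ± 5.84 against 36.3 ± 23.0; log2 -2.27). Tcf7l2 lost its call without LP replicate 2 (adjusted p = 0.0631), and Sfrp2 without LP replicate 1 (0.0556), LP replicate 2 (0.146), basal replicate 1 (0.0633) or basal replicate 3 (0.0713). Axin2, the usual readout gene of the pathway, did not pass (11.7 ± 11.6 against 2.42 ± 1.45 CPM; log2 2.28, adjusted p = 0.101) and passed without basal replicate 2 (log2 2.67; 0.0119).

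Genes of TGF-beta and BMP signalling were higher in basal cells in 10 of 27 tested members and lower in 1, and without basal replicate 2 in 13 and 1. Tgfbr3, the co-receptor betaglycan, averaged 590.4 ± 249 and 34.5 ± 1.74 CPM (log2 4.10), the ligand gene Bmp7 97.6 ± 27.9 and 1.07 ± 1.01 (log2 6.43), Ltbp4, which holds latent TGF-beta in the matrix, 90.5 ± 30.6 and 7.68 ± 5.94 (log2 3.54), and the activin antagonist Fst 156 ± 87.4 and 4.502 ± 2.98 (log2 5.14). The ligand gene Tgfb3 was lower (71.7 ± 39.1 against 252 ± 103 CPM; log2 -1.81), with overlapping groups, and lost its call without LP replicate 1 (adjusted p = 0.0644), LP replicate 2 (0.0541), basal replicate 1 (0.0584), basal replicate 2 (0.0531) or basal replicate 3 (0.0597). Of the YAP and TEAD list, 8 of 14 tested were higher and none was lower, while without basal replicate 2 the counts were 6 and 1 and with the block 7 and 1. Ctgf averaged 159 ± 55.4 and 6.10 ± 2.61 CPM (log2 4.71), Axl 182 ± 55.9 and 17.1 ± 12.9 (log2 3.41), Tead1 538 ± 138 and 110.5 ± 29.8 (log2 2.28) and Yap1 174 ± 47.3 and 68.5 ± 10.0 (log2 1.34). Cyr61, another target of this pathway, did not pass (196 ± 78.8 against 253 ± 123 CPM).

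Of 34 tested axon guidance genes, 19 were higher in basal cells and 2 were lower, with a median of 2.05, and 22 were higher without basal replicate 2. Here a ligand and its receptor lay on the same side: Slit2 averaged 82.3 ± 44.5 and 1.73 ± 0.926 CPM (log2 5.51), and its receptor gene Robo1 measured 91.2, 60.5, 99.3 and 90.7 CPM in basal cells and 2.00, 5.24, 3.12 and 3.93 CPM in LP (log2 4.58, SE 0.36; adjusted p = 5.96e-07). Sema5a averaged 241 ± 64.6 and 8.95 ± 3.16 (log2 4.74) and Plxna2 31.8 ± 11.9 and 1.51 ± 1.20 (log2 4.37). Ntn1 (16.7 ± 8.14 against 96.9 ± 40.2 CPM; log2 -2.54) and Efna1 (4.22 ± 3.04 against 19.8 ± 6.28; log2 -2.20) were lower, while Ntn4, a netrin of basement membranes, was higher (63.3 ± 37.0 against 6.57 ± 2.15; log2 3.28).

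Of 24 tested ion channel genes, 9 were higher in basal cells and 4 lower, with a median of 0.17. Without basal replicate 2 the counts were 9 and 8 and the median was -0.25, and with the pool of mice as a block they were 9 and 7. Beside Kcnma1 and Kcnmb1, the higher ones included the L-type calcium channel genes Cacna1c (112 ± 30.8 against 2.35 ± 1.56 CPM; log2 5.59) and Cacna2d1 (123 ± 44.5 against 2.49 ± 1.66; log2 5.62) and the cation channel gene Trpv4 (17.4 ± 5.27 against 0.210 ± 0.148; log2 6.25). The lower ones were Aqp5, the stretch-activated channel Piezo1 (47.0 ± 13.1 against 151 ± 17.5 CPM; log2 -1.68), the potassium leak channel Kcnk1 (32.8 ± 18.4 against 119 ± 22.2; log2 -1.86) and the chloride channel Ano1 (234 ± 76.7 against 502 ± 61.7; log2 -1.10). Among the hormone receptor genes, Oxtr was higher in basal cells, as given above. The receptors known from hormone-sensing luminal cells were low in both populations, as with Pgr at 32.7 ± 13.0 and 22.9 ± 16.0 CPM against a mean of 403 CPM in ML. Pgr did not pass, except without LP replicate 4 (log2 1.10; adjusted p = 0.0349).

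On the LP side, all 18 genes of the LP marker list were tested and all 18 had negative log2 fold changes, but only 9 passed (the background is 6.68% lower). Without basal replicate 2, 17 passed, and with the pool of mice as a block 16 did. The summed level of the list was 790, 9858, 1749 and 1270.0 CPM in basal replicates 1 to 4 and 23472, 33999, 14604 and 19964 CPM in LP, so that basal replicate 2 held several times the level of the other basal libraries and still lay below every LP library. Trf (chromosome 9, 103204001 to 103230444, minus strand) measured 216, 2435, 242 and 239 CPM in basal cells and 9717, 12828, 4059 and 5598 CPM in LP (log2 -3.36, SE 0.74; adjusted p = 0.00505; log2 -5.13 without basal replicate 2). Mfge8, a coat protein of the milk fat globule, averaged 319.6 ± 279 and 1265 ± 329 CPM (log2 -1.98). The LP marker list shares Csn3, Lalba, Wfdc18, Trf, Ltf and Mfge8 with the milk list below, so the sums of these lists are not independent. In basal replicate 2, Csn3 (3877 CPM) and Trf (2435 CPM) made up much of the LP marker sum.

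Milk genes had the widest spread. Of 16 tested, 7 were lower in basal cells, none was higher and 9 did not pass, and 14 were lower without basal replicate 2 as well as with the block. The summed level of the list was 726, 28013, 1695 and 1307 CPM in basal replicates 1 to 4 and 31069, 122336, 25243 and 20466 CPM in LP. Replicate 2 was the highest of both populations, and its basal library exceeded LP replicates 3 and 4. Csn2, beta-casein, measured 22.01, 6656, 87.1 and 90.4 CPM in basal cells and 1949.9, 30664, 4315 and 897 CPM in LP, and it did not pass (log2 -2.46, SE 1.89; adjusted p = 0.457) unless basal replicate 2 was left out (log2 -7.17; 0.0253) or the pool was blocked (8.95e-04). Csn1s1, an alpha-casein, measured 44.4, 5935, 171 and 199 CPM in basal cells and 3789, 27073, 5653 and 2515 CPM in LP (log2 -2.62; adjusted p = 0.315, and 0.00771 without basal replicate 2, 5.64e-04 with the block). Csn3, kappa-casein, measured 84.98, 3877, 274 and 195 CPM in basal cells and 6998, 14203, 4076 and 6118 CPM in LP (log2 -2.82; adjusted p = 0.11, and 1.80e-04 without that library, 6.22e-04 with the block). Plin2, the coat protein of lipid droplets, passed with all libraries (47.5 ± 37.6 against 299.6 ± 78.1 CPM; log2 -2.66, adjusted p = 2.85e-04). Glycam1 was the 1 member with a positive log2 fold change (17.97 ± 29.6 against 4.47 ± 8.79 CPM; log2 1.99, adjusted p = 0.513), and it passed as higher without LP replicate 2 (log2 7.86; 0.0459).

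**Figure D4:**
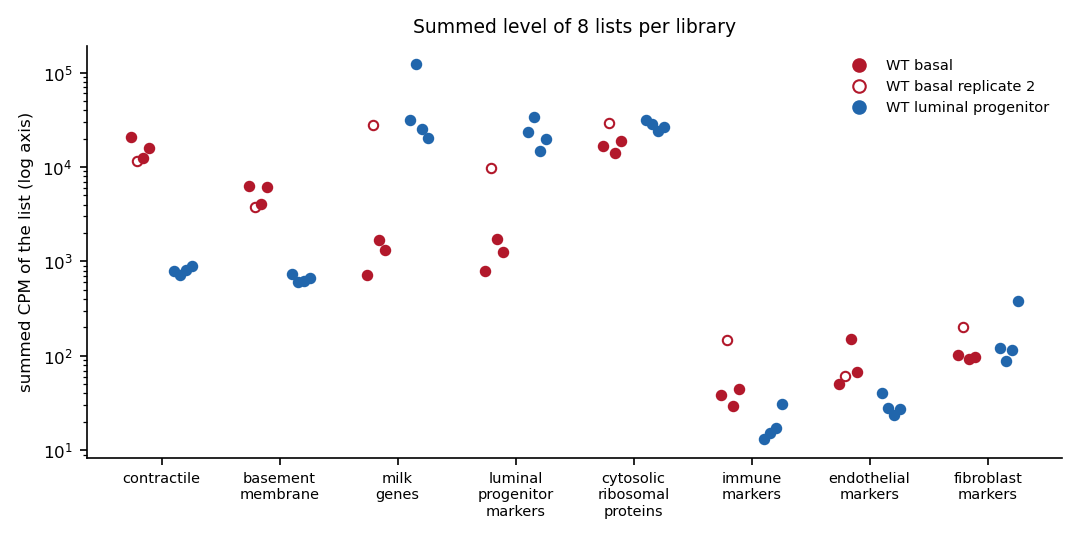
Summed CPM of 8 gene lists in each of the 4 basal and 4 LP libraries on a log axis, with basal replicate 2 as an open symbol. Contractile and basement membrane genes separate the populations in every library, while for milk genes basal replicate 2 at 28013 CPM lies among the LP libraries. The milk and LP marker lists share genes, Csn3 and Trf among them.

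Casein genes are known targets of prolactin through STAT5, which binds the GAS element TTCNNNGAA. The 250 bases before the start sites of 2 casein genes are shown because both had far higher CPM in replicate 2 than in the other replicates of either population, and capitals mark the GAS element.
Csn2, chr5:87699426-87699675, minus strand: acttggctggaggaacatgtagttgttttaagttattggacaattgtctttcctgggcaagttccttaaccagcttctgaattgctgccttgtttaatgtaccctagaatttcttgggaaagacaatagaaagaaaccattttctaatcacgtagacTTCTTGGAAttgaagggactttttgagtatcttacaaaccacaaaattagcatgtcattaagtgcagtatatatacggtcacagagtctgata
Csn1s1, chr5:87665958-87666207, plus strand: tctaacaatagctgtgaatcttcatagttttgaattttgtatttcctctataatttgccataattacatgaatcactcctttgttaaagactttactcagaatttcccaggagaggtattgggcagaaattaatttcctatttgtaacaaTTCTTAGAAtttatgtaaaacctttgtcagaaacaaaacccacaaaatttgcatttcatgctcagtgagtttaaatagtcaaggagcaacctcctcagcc
The element begins at -93 in Csn2 and at -100 in Csn1s1, on the strand shown. Over the same 300-base windows and both strands, 4 of 12 milk genes with a promoter in the table held it (Csn1s1, Csn2, Csn1s2a and Glycam1), none of the 17 contractile genes did, and 2582 of 27025 genes (9.55%) did. Stat5a, as given above, did not pass between the populations.

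Genes shared by all luminal epithelium were lower in basal cells in 10 of 14 tested members and higher in none, with a median of -1.63. Epcam, the epithelial adhesion molecule, measured 194, 315, 287 and 247 CPM in basal cells and 683, 813, 990.3 and 752 CPM in LP (log2 -1.63, SE 0.21; adjusted p = 6.01e-05). The protease gene St14 averaged 44.2 ± 9.39 and 137 ± 18.05 CPM (log2 -1.63) and Ceacam1 116 ± 89.0 and 683 ± 249 (log2 -2.56). Against a background of 6.68% lower and 9.12% higher, 2 of 16 mature luminal markers were lower in basal cells (Ly6d and Ly6a) and 1 higher (Tbx3). All of these were higher in ML than in LP by their means: Ly6a averaged 5.25, 23.7 and 213 CPM in basal cells, LP and ML, and Tbx3 34.1, 9.78 and 157 CPM.

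Of 21 tested genes of innate defence, 8 were lower in basal cells and 1 was higher. Without basal replicate 2, 11 were lower, and with the block 13 were, and 1 was higher in both. Beside Pigr and Lcn2, the complement gene C3 measured 325, 429.8, 513 and 378 CPM in basal cells and 2127, 2041, 1609.8 and 1049 CPM in LP (log2 -2.05, SE 0.34; adjusted p = 5.17e-04), complement factor B, Cfb, averaged 1.44 ± 0.660 and 17.6 ± 5.44 CPM (log2 -3.63), and the mucin gene Muc1 17.5 ± 13.2 and 122 ± 29.5 (log2 -2.81). Slpi, an antiprotease of mucosal surfaces, went the other way with 240.2, 86.7, 254 and 172 CPM in basal cells and 5.87, 5.77, 5.99 and 2.20 CPM in LP (log2 5.25, SE 0.48; adjusted p = 2.61e-06). Of 25 lipid synthesis genes 4 were lower in basal cells and none was higher, against 6.68% and 9.12% of all genes. Without basal replicate 2 the counts were 7 and 2. The lower ones included the desaturase gene Scd1 (105 ± 65.8 against 790.5 ± 187 CPM; log2 -2.91) and the elongase gene Elovl6 (12.9 ± 8.33 against 38.4 ± 6.68; log2 -1.57), while the fatty acid synthase gene Fasn did not pass (179 ± 57.8 against 258 ± 136 CPM).

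None of 22 proliferation genes passed edgeR's test in either direction, with 1 at an unadjusted p under 0.05 and 1 called by DESeq2, and 1 was lower both without basal replicate 2 and with the block. Mki67 averaged 104 ± 57.6 CPM in basal cells and 128 ± 87.9 in LP. Of 10 tested G1 cyclin, CDK and CDK inhibitor genes, 1 was higher, 3 were lower and 6 did not pass. Ccnd2, cyclin D2, measured 120.3, 77.5, 50.3 and 142 CPM in basal cells and 0.998, 0.874, 1.92 and 3.78 CPM in LP (log2 5.68, SE 0.97; adjusted p = 7.52e-04). Ccnd1, cyclin D1, measured 116, 127, 84.1 and 129 CPM in basal cells and 509, 329, 239 and 321 CPM in LP (log2 -1.62, SE 0.28; adjusted p = 8.97e-04). Cyclin D2 was thus close to absent from LP, and cyclin D1 was present in both and higher in LP. Cdk6, a partner of D cyclins, averaged 240.4 ± 35.8 and 603 ± 112 CPM (log2 -1.33), and Rb1, the retinoblastoma gene, 76.3 ± 49.0 and 445 ± 24.2 (log2 -2.54, adjusted p = 2.82e-04). Cdk4 did not pass.

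Cytosolic ribosomal protein genes were lower in basal cells in 10 of 79 tested members, against 6.68% of all genes, and higher in none. The list median was -0.48, and 40 were lower without basal replicate 2 and 19 with the block. Rpl5 averaged 698 ± 67.3 CPM in basal cells and 1307 ± 47.3 in LP (log2 -0.91, SE 0.19; adjusted p = 0.00323), Rpl3 474 ± 36.5 and 843 ± 117 (log2 -0.83) and Rps4x 619.9 ± 28.2 and 1146 ± 173 (log2 -0.89). The summed level was 16852, 28999, 13915 and 18760.2 CPM in basal replicates 1 to 4 and between 23783 and 31645 CPM in LP. The share of counts in mitochondrial ribosomal RNA was 26.2% in basal replicate 2 and 15.3% to 17.5% in the other basal libraries, and 16.4% to 28.2% in LP. Its part in these results was not tested.

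Of 20 immediate early genes, which respond within minutes to cell handling, 6 were higher in basal cells and 2 lower. The shares of all genes are 9.12% and 6.68%. Without basal replicate 2 the counts were 3 and 1. Dusp1 averaged 1046 ± 313 and 487 ± 116 CPM (log2 1.10), Klf4 439.7 ± 99.3 and 207 ± 59.0 (log2 1.08), and Klf6 783 ± 135 and 2278 ± 484 (log2 -1.54, adjusted p = 1.95e-04), the last of these lower. Of 18 interferon genes 3 were higher and 2 lower, against 9.12% and 6.68% of all genes. The counts were 4 and 4 without basal replicate 2 and 3 and 1 with the block. The higher ones included the transcription factor gene Stat2 (23.7 ± 12.7 against 7.05 ± 0.727 CPM; log2 1.75).

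Markers of other cell types were low. The summed level of 14 matched immune markers was 29.2 to 146 CPM in basal cells, with the highest value in replicate 2, and 13.2 to 30.8 CPM in LP, and none of the 5 tested passed edgeR's test, with 2 at an unadjusted p under 0.05 and 0 called by DESeq2. The 12 endothelial markers summed to 49.8 to 151 CPM in basal cells and 23.5 to 40.2 CPM in LP, and 2 of 8 tested were higher in basal cells, among them Eng (17.4 ± 7.25 against 3.47 ± 2.08 CPM). The 10 fibroblast markers summed to 93.2 to 202 CPM in basal cells and 89.3 to 378 CPM in LP. Of 6 tested, 1 was higher in basal cells and 1 lower (2 lower without basal replicate 2), against 9.12% and 6.68% of all genes. The 7 pericyte markers summed to 28.4 to 118 CPM in basal cells and 84.2 to 124 CPM in LP. Of 4 tested, Cspg4 was higher in basal cells (7.90 ± 4.75 against 0.428 ± 0.446 CPM) and Notch3, given with its pathway, was lower. By its mean, Notch3 made up most of the LP sum. Sums of different lists hold different genes and numbers of genes, so their sizes do not give the share of such cells. Adipocyte markers summed to at most 28.3 CPM and erythroid markers to at most 1.88 CPM in any of the 8 libraries, and 4 of 6 erythroid and 2 of 9 adipocyte markers were at 0 in all 8. The Schwann cell markers, among them Sox10 of the LP list, summed to 64.6 to 184 CPM in basal cells and 110 to 142 CPM in LP. The part of such cells in the results was not tested.

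The same contrast in Id4 knockout mice uses other libraries, so its values can stand beside the wild-type ones. There 1883 of 12711 genes tested passed (14.8%). Of the 2018 genes that passed in wild type, 1942 were tested in KO. Of these 1873 had the same sign and 69 the opposite one, and 1110 passed with the same sign and none passed with the opposite one. Acta2 had a log2 fold change of 8.57 in KO, Krt14 7.48, Trp63 9.65, Dll1 7.37, Hgf 8.04, Kit -3.39, Met -2.87 and Trf -4.48, all passed. Elf5, which did not pass in wild type, passed in KO (log2 -3.78; adjusted p = 0.0165), while Csn2 and Csn1s1 passed in neither (log2 -3.14 and -3.56 in KO). Kcnma1, at 0 in every wild-type LP library, did not pass in KO (log2 2.88; adjusted p = 0.256), and Cyp2s1 did not either (log2 3.09; 0.101). The difference of the contrast between genotypes passed edgeR's test for none of 14082 genes (0.0%), with 980 at an unadjusted p under 0.05, and DESeq2 called 29.

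**Figure D5:**
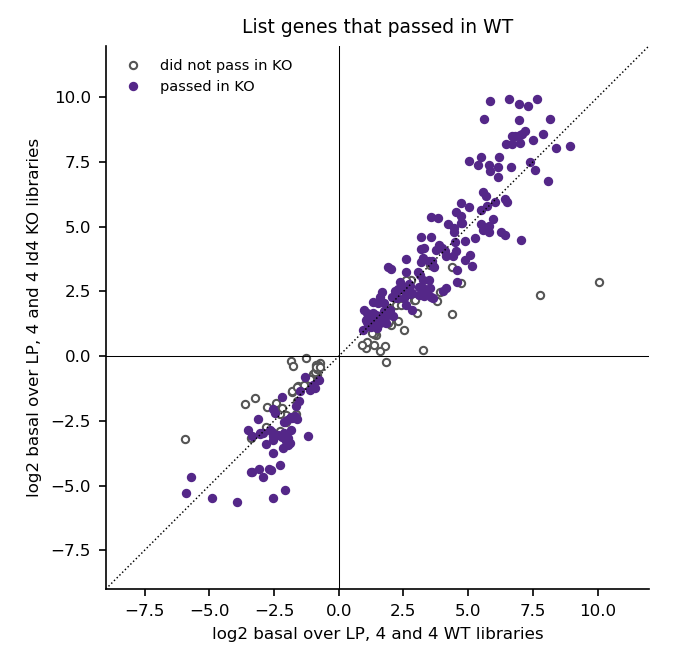
Log2 fold change of basal over LP cells in Id4 KO mice (vertical, 4 and 4 libraries) against that in wild-type mice (horizontal, 4 and 4 libraries) for the 277 list genes that passed in wild type and were tested in KO, with the dotted line at equality and filled points for genes that also passed in KO. Of the 277 genes, 276 have the same sign in both genotypes and 205 passed in both.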

How the data were processed

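RNA of sorted cells, 0.5 to 2 ng a sample, was amplified as cDNA before sequencing (NuGEN Ovation RNA-seq V2), per the labels' protocols. Reads were processed with cutadapt, STAR and RSEM on mm10, per the submitters' processing notes, with versions and parameters not stated there. The authors deposited 1 table of expected counts per gene (24004 genes). These were rounded to whole numbers here, and 3 rows that name no mouse gene, with 0 to 2 counts a library, were left out.

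Differences were tested with edgeR 4.0.16 (TMM scaling, quasi-likelihood test, R 4.3.3) in the 12 wild-type libraries, ML included so that all 3 populations share 1 estimate of the spread, and adjusted by Benjamini-Hochberg over all genes that passed the count filter; every adjusted p in the text comes from edgeR's test unless another tool is named, and a gene passed at 0.05. CPM use the same scaling. The KO contrast was fitted in the 12 KO libraries and the difference of the contrasts in all 24. Alternatives used limma 3.58.1 (voom), DESeq2 1.42.0 and other settings, and the closing section gives their effect. The test was checked on simulated data, where it missed many true changes, so a gene that did not pass is not shown to be alike in the populations.

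Libraries with 1 replicate number share a pool of mice. The deviations of basal and LP libraries from their group means correlated at 0.156, 0.149, 0.208 and 0.0656 for replicates 1 to 4. For basal and LP libraries of different replicate numbers the correlations ran from -0.199 to 0.101. The replicates are separate pools. Amplified reads carry no molecular identifiers, so the limits of 3 counts cover counting error only.

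Members and the 40 gene lists (769 symbols, 3 not in the table) were chosen with earlier results of these data known. Genes named by rule were the label markers and sort genes, the 12 largest separated changes in each direction at 20 CPM or more, the 5 most abundant per length, up to 5 at 0 in the lower group, and for each list the 4 smallest p plus members against its majority. Other list members were named after their values were seen.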

Additional observations from a re-analysis of the deposited data

Results flagged for a closer look

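In groups of 4 libraries, 1 library of the following genes stood apart from the other 3 by a gap that, as a share of the group's whole range in CPM, was above Dixon's 95% critical value for 4 samples. Chance flags about 1 group in 20 only where values follow a normal distribution, which was not checked for CPM. A group with 1 library above 0 and the other 3 at 0 is flagged whatever the count. This was the case in LP for Kcnmb1, Nptx1, Eya1, Tmem200a, Htr1d and Cyp2s1.

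LP replicate 1 was the high library, with its CPM in brackets, for Krt23 (3.25), Tmem200a (0.374) and Rpl3 (1017). It was the low one for Krt19 (352). LP replicate 2 was the high library, with its CPM in brackets, for Jag2 (2.80), Piezo1 (177), Kcnmb1 (0.350), Glycam1 (17.7), Fasn (460.0), Csn1s2a (25139), Csn2 (30664), Myl9 (2.27), Htr1d (0.350) and Csn1s1 (27073). LP replicate 3 was the high library, with its CPM in brackets, for Nptx1 (0.240). It was the low one for Igfbp5 (3912). LP replicate 4 was the high library, with its CPM in brackets, for Axl (36.2), Snai2 (2.20), Eya1 (0.157), Mmp2 (19.99), Pgr (46.7), Lif (252), Ly6d (21.2) and Cyp2s1 (0.157). It was the low one for Slpi (2.20) and Col4a1 (4.25). Basal replicate 1 was the high library, with its CPM in brackets, for Perp (387), Mylk (1517) and Fzd7 (646). Basal replicate 2 was the high library, with its CPM in brackets, for Csn3 (3877), Folr1 (12.2), Lcn2 (1500.4), Elf5 (296), Plin2 (103), Mfge8 (736), Trf (2435), Cyp24a1 (13.8), Csn1s2a (5314), Csn2 (6656), Csn1s1 (5935) and Pinc (5.81). It was the low one for Dll1 (75.7), Lama5 (109.5) and Yap1 (103). Basal replicate 3 was the high library, with its CPM in brackets, for Glycam1 (62.1), Aqp5 (3.05) and Btc (3.05). It was the low one for Lgr6 (184). Basal replicate 4 was the high library, with its CPM in brackets, for Tgfb3 (130.3) and Elovl6 (25.3).

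The genes high in basal replicate 2 included the casein genes, Trf, Mfge8, Plin2, Lcn2 and Elf5. All of these were higher in LP by their group means. This library had Acta2 (3463 CPM) within the range of the other basal libraries. It held less Krt14 (352 CPM) than they did, but far more than any LP library. Its summed basal keratins were also the lowest of the basal libraries (965 CPM). Its share of counts in mitochondrial ribosomal RNA was 26.2%, and it had a count in 13130 genes against 15060 or more in the other basal libraries. The part of these measures, of luminal cells in the basal sort and of the pool of mice in the high values was not tested.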

How the results depend on the processing

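With the pool of mice as a block (replicate block), 2239 genes passed against 2018 without it, 1219 higher and 1020 lower, and 1081 of the 1165 higher and 809 of the 853 lower calls were kept. Among the genes named in the text, the block changed the calls of Elf5, Csn1s1, Csn1s2a, Csn2, Csn3, Itgb3, Krt16 and Lgr6, and no other. Lower genes numbered 461 in a fit of the 8 basal and LP libraries alone, 562 with a replicate block in that fit, and 1429 with a block and without basal replicate 2, an alternative chosen after seeing the data. Tested against a 2-fold change, 898 genes passed, 639 higher and 259 lower. Within replicates 1 and 2, 347 passed, 285 higher and 62 lower, and within replicates 3 and 4, 2036 passed, 1175 higher and 861 lower. Leaving out 1 library gave 1557 to 2808 calls. Lower genes then numbered 519 (without LP replicate 2) to 1321 (without basal replicate 2). DESeq2 called 2698 and voom with sample weights 2544. The share of higher among all calls was 57.7% with TMM and 62.3% with DESeq2's size factors in edgeR (1255 higher, 760 lower). For the difference between genotypes, DESeq2 called 29 against 0, and leaving out 1 library gave 0 to 13, the highest without KO basal replicate 1, 2 without wild-type basal replicate 2, and 1 each without wild-type basal replicate 3 or KO basal replicate 4. The cause of these shifts was not tested.

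Genes that did not pass changed sign in some settings. Stat5a had a log2 fold change of 0.15 and of -0.0060 without basal replicate 2, -0.0090 with a replicate block and without basal replicate 2 and -0.031 by voom with sample weights. Glycam1 had a log2 fold change of 1.99 and of -0.48 without basal replicate 3 and -1.18 within replicates 1 and 2, and leaving out 1 library gave -0.48 to 7.86. Zeb1 had a log2 fold change of -0.42 and of 0.26 within replicates 3 and 4. Fasn had a log2 fold change of -0.53 and of 0.12 within replicates 3 and 4. Fn1 had a log2 fold change of -1.52 and of 0.82 within replicates 1 and 2. Cyr61 had a log2 fold change of -0.36 and of 0.0059 without LP replicate 4 and 0.40 within replicates 1 and 2, and leaving out 1 library gave -0.60 to 0.0059. Mki67 had a log2 fold change of -0.30 and of 0.13 without LP replicate 2 and 0.025 within replicates 1 and 2, and leaving out 1 library gave -0.75 to 0.13. Csn1s2a had a log2 fold change of -2.44 and of 0.087 without LP replicate 2, and leaving out 1 library gave -9.13 to 0.087.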
